A study of Mus musculus with 12 samples.

Results

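The genes described here drive the copying and the sharing out of chromosomes in dividing cells. They are 37 of the 21956 protein-coding genes measured in mouse mammary gland, chosen by name: 15 act in S phase, when DNA is copied, and 22 act in mitosis and the run-up to it. RNA was sequenced from the inguinal mammary gland (gland 4) of ICR mice, an outbred stock, on day 17 of pregnancy, with 4 libraries for each of 3 groups. Met-Met mice ate a methionine-deficient diet from day 0 of pregnancy and received intraperitoneal methionine at 35% of the control diet's content, with 25% of it given as the dipeptide methionyl-methionine. Met mice ate the same deficient diet and received the same amount, all as free methionine. Of Control the labels say only that there was a control diet, so diet, methionine amount and injection cannot be told apart in comparisons with Control. Setting Met-Met against Met addresses the dipeptide. The labels state n = 4 but not whether libraries came from different mice, so each p-value reflects the variation among these libraries alone, and that variation could be technical.

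A cell that is going to divide first loads the Mcm helicase ring onto DNA, then turns the ring on, copies its DNA and makes the deoxynucleotides it needs. Later it builds up cyclin B and its kinase, condenses its chromosomes, attaches them to a spindle and separates them once the spindle checkpoint is satisfied. Transcripts of the replication genes peak at the border of G1 and S phase and are known targets of E2F factors, while those of mitosis genes peak in G2 and M phase and are known targets of the B-Myb and FoxM1 complexes. In the mammary gland, alveolar epithelium multiplies through pregnancy and turns towards milk secretion near its end.

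In Met glands all 22 mitosis genes fell relative to Control, with a median log2 fold change of −1.16. Among 14 tested S phase genes 3 fell (21.4%) and 0 rose, with a median of −0.20. Of all genes tested 14.8% fell and 13.6% rose. The 3 S phase genes that fell, Rrm1, Rrm2 and Tk1, all serve the supply of deoxynucleotides. Only the call of Tk1 was left without Met 3 or without Control 2, and Tyms, also of nucleotide supply, was not called. Met-Met glands stood between the other groups for most mitosis genes, with a median of −0.53 against Control. Of the 22, 5 were called lower (22.7%, beside 9.41% of all genes tested). For most S phase genes Met-Met glands stood at or above Control, with a median of 0.33, or 0.16 without the library Met-Met 3. Of the 14, 1 was called higher (7.14%), below the 10.8% of all genes tested. Against Met, 13 of the 36 tested genes were higher in Met-Met and 0 were lower, beside 5.94% and 5.66% of all genes tested. In a fit of only those 8 libraries 5 were higher. A gene was called where its limma p, adjusted over all 11809 genes tested, was under 0.05. Levels are FPKM, reads per length and library, divided by 1 factor per library. Fold changes are on the log2(scaled FPKM + 1) scale, which understates the change of low genes.

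**Figure D1:**
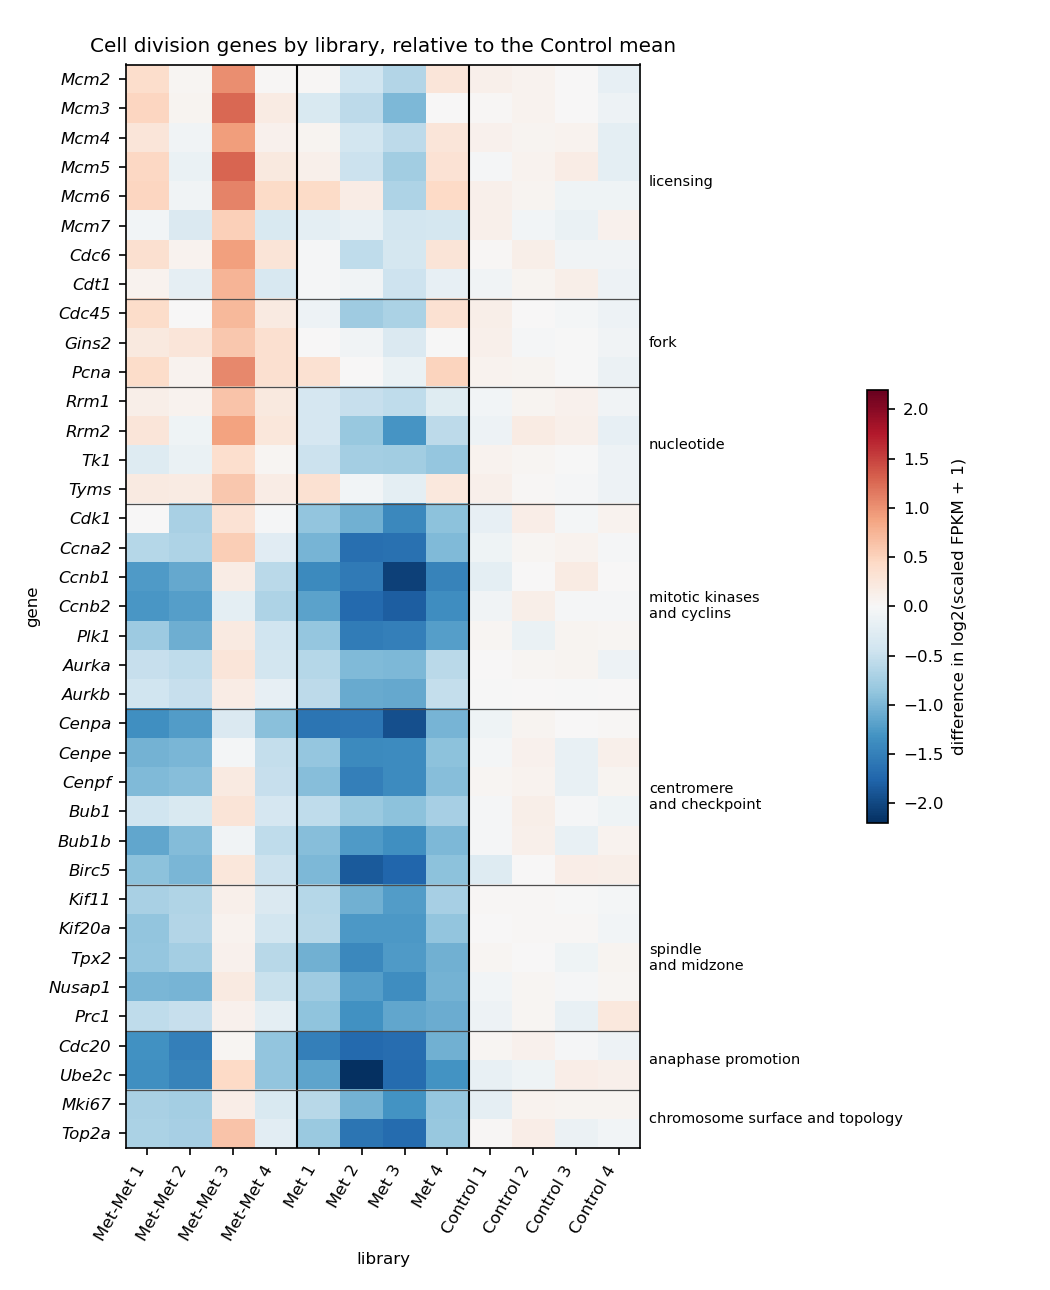
Rows are the 37 genes in order of role and columns the 12 libraries, with colour for the difference in log2(scaled FPKM + 1) from the Control mean of that gene. Mitosis genes are blue (lower) in all 4 Met libraries and, Cdk1 in Met-Met 1 aside, in 3 of the 4 Met-Met libraries. In Met-Met 3 they go both ways, and that library is the highest of its group in 37 of 37 rows.

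Cdc6 alone was not tested, because its mean over all libraries was under the minimum of 1 FPKM. Gins2, Cenpe, Cenpf and Bub1 passed that minimum with a Met mean under 1 FPKM as deposited, so they passed through the groups where they were higher. Member values ran from 0.105 to 42.8 scaled FPKM and none was listed at 0. The files give no read numbers, so absolute depth is unknown. Steps between low values put the depth of the other libraries at 0.884 to 1.16 times that of Control 1.

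Some libraries stood apart in ways the groups do not describe. B cell markers averaged 1.23 to 2.90 log2 units in 6 libraries (Met-Met 1 and 3, Met 4, Control 1, 2 and 3) and 0.0669 to 0.274 in the other 6. T cell markers split the libraries in the same way, at 1.40 to 3.01 in the first 6 and 0.263 to 0.589 in the others. The noncoding gene Gm26917 was at 9013 to 9305 FPKM in Met-Met 2, Met 3 and Met 4 and at 72.3 to 99.2 FPKM elsewhere. The skeletal muscle markers had a mean of 4.59 in Met 2, where no other library passed 0.689. Alveolar epithelium markers were present in every library, with means of 11.66 to 12.98 log2 units. In whole tissue, fewer cells of a type and less RNA per cell cannot be told apart.

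The comparison of Met with Control asks how the gland differs on the deficient diet with injected free methionine. The count of 25 of 36 genes called lower compares with 14.8% of all genes tested that were lower. Genes higher made up 13.6% of all genes tested, against 0 of 36 here, and 0 also at an unadjusted p under 0.05. For 26 genes every Met library lay below every Control library, against 13.3% of all genes tested. Leaving out the 4 genes with a Met mean under 1 FPKM, 19 of 19 mitosis genes and 3 of 13 S phase genes were lower.

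Of the 7 genes that encode mitotic cyclins and kinases, 7 fell. Ccnb1 encodes cyclin B1, which brings Cdk1 into action at entry to mitosis. It was at 1.90, 2.15, 6.73 and 3.58 in the Met-Met libraries, 1.61, 1.34, 0.659 and 1.497 in the Met libraries and 4.98, 5.94, 6.87 and 5.94 in the Control libraries, in scaled FPKM and in the order of replicates 1 to 4, as in all lists of values that follow. Every Met library was below every Control library, and the fold change of −1.62 (standard error 0.26, limma adjusted p = 0.00140) was the lowest of the 36 genes. Ccnb2, its sister cyclin, was at 1.95, 2.10, 5.22 and 3.51 in the Met-Met libraries, 2.19, 1.196, 1.04 and 1.80 in the Met libraries and 5.78, 6.83, 6.07 and 6.09 in the Control libraries. Its Met and Control libraries did not overlap either, with a fold change of −1.51 (standard error 0.22, limma adjusted p = 7.27e-04). Ccna2, the cyclin of S phase and G2, was at 5.39, 5.19, 13.3 and 7.31 in the Met-Met libraries, 3.87, 2.11, 2.16 and 4.02 in the Met libraries and 8.26, 9.16, 9.40 and 8.64 in the Control libraries. The difference was −1.32 (standard error 0.25, limma adjusted p = 0.00284), with Met libraries at most 4.02 and Control libraries at least 8.26.

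Cdk1, the kinase that both cyclins serve, was at 3.96, 2.03, 5.20 and 3.85 in the Met-Met libraries, 1.71, 1.38, 0.844 and 1.66 in the Met libraries and 3.37, 4.49, 3.81 and 4.22 in the Control libraries. Its Met mean was 1.40 ± 0.398 against 3.97 ± 0.488 in Control (SD, n = 4 each), a fold change of −1.06 (standard error 0.20, limma adjusted p = 0.00264). Plk1, a kinase of centrosomes and kinetochores, was at 2.07, 1.52, 5.07 and 2.93 in the Met-Met libraries, 1.93, 0.839, 0.879 and 1.297 in the Met libraries and 4.44, 3.79, 4.57 and 4.48 in the Control libraries. Again no Met library reached a Control library (−1.27, adjusted p = 0.00264). Aurora B, encoded by Aurkb, corrects wrong attachments between spindle and chromosome. It was at 1.74, 1.62, 3.17 and 2.28 in the Met-Met libraries, 1.49, 0.715, 0.696 and 1.58 in the Met libraries and 2.70, 2.75, 2.67 and 2.74 in the Control libraries, a change of −0.84 (standard error 0.17, limma adjusted p = 0.00497). Aurka, the Aurora kinase of spindle poles, fell by 0.80 (adjusted p = 0.00573).

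All 6 genes of the centromere and the spindle checkpoint fell. Cenpa encodes the histone H3 variant that marks centromeres. It was at 1.5, 1.70, 4.08 and 2.36 in the Met-Met libraries, 1.09, 1.12, 0.663 and 2.13 in the Met libraries and 4.92, 5.64, 5.37 and 5.46 in the Control libraries. The 4 Control libraries lay within 4.92 to 5.64 and the Met libraries at 2.13 or less, which gave a fold change of −1.53 (standard error 0.22, limma adjusted p = 7.26e-04). Birc5 encodes survivin, which works in the same complex as Aurora B. Its levels were 3.88, 3.58, 9.83 and 5.58 in the Met-Met libraries, 3.62, 1.54, 1.74 and 3.87 in the Met libraries and 6.51, 8.24, 9.10 and 9.003 in the Control libraries. Met averaged 2.69 ± 1.23 and Control 8.21 ± 1.2 (SD, n = 4 each), a difference of −1.37 (adjusted p = 0.00455). The kinetochore motor gene Cenpe changed by −1.14 (adjusted p = 0.00287) and the kinetochore gene Cenpf by −1.19 (adjusted p = 0.00371). Bub1 and Bub1b, which hold back anaphase until chromosomes are attached, had fold changes of −0.75 and −1.13. Neither overlapped between Met and Control.

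The 5 genes of the spindle and its midzone all fell. Prc1, which bundles microtubules between separating chromosomes, had the smallest adjusted p of all members in Met against Control, at −1.11 (standard error 0.15, limma adjusted p = 5.64e-04). Tpx2, a spindle assembly factor, changed by −1.19 (adjusted p = 8.05e-04). Kif11, the motor that pushes spindle poles apart, changed by −0.91 (adjusted p = 0.00377), Kif20a, a motor of cytokinesis, by −1.0 (adjusted p = 0.00361) and Nusap1, a microtubule-binding protein, by −1.10 (adjusted p = 0.00512).

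Cdc20 activates the anaphase-promoting complex, which tags cyclin B for destruction. Cdc20 was at 2.95, 2.51, 9.18 and 4.44 in the Met-Met libraries, 2.51, 2.02, 2.10 and 3.74 in the Met libraries and 9.24, 9.63, 8.70 and 8.13 in the Control libraries. Controls were within 8.13 to 9.63 and Met libraries within 2.02 to 3.74, a fold change of −1.49 (standard error 0.27, limma adjusted p = 0.00260). Ube2c, the ubiquitin-conjugating partner of that complex, had the widest standard error of the members, at −1.59 (standard error 0.36, limma adjusted p = 0.00745). Mki67, which coats mitotic chromosomes and is the common marker of proliferating cells, was at 11.5, 11.3, 21.96 and 15.4 in the Met-Met libraries, 12.6, 9.11, 7.28 and 10.4 in the Met libraries and 17.1, 20.9, 20.5 and 20.5 in the Control libraries. No Met library reached a Control library, and Mki67 fell by 0.95 (standard error 0.20, limma adjusted p = 0.00469). Top2a, which untangles DNA strands, was at 7.57, 7.34, 20.4 and 10.8 in the Met-Met libraries, 6.87, 3.51, 3.26 and 6.77 in the Met libraries and 13.1, 14.3, 11.7 and 12.3 in the Control libraries. Its Met libraries reached at most 6.87 and its Control libraries at least 11.7, a change of −1.24 (standard error 0.29, limma adjusted p = 0.00889).

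**Figure D2:**
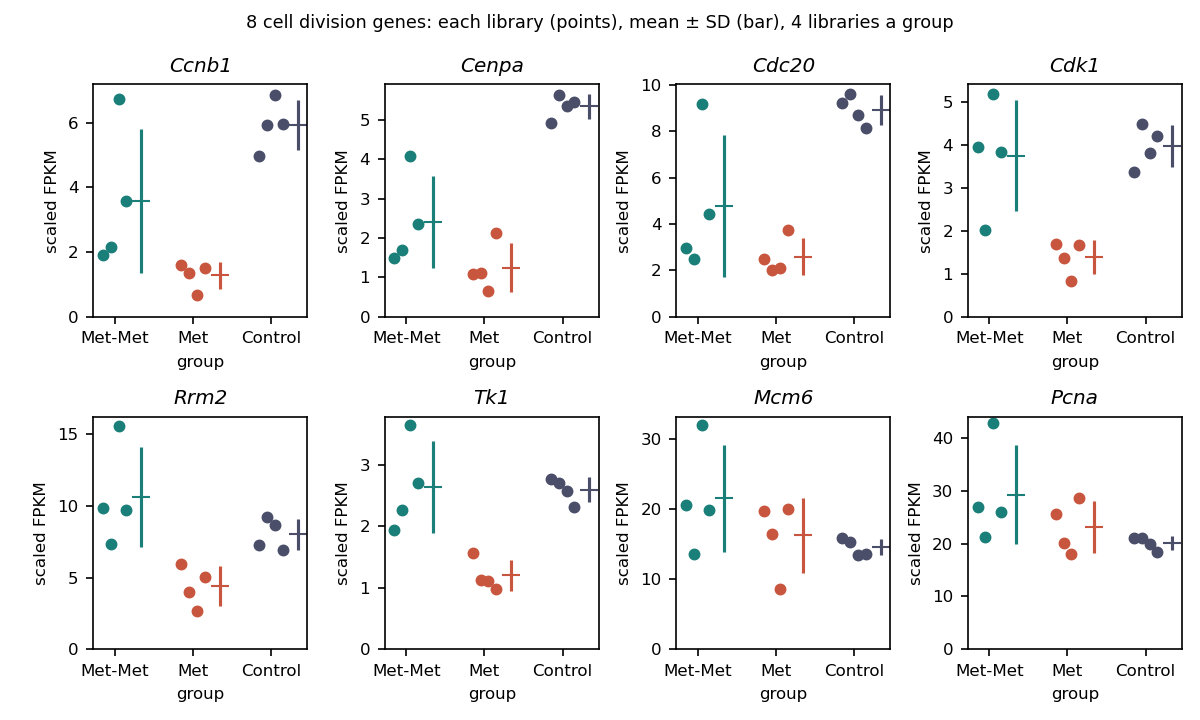
Points are single libraries in scaled FPKM for 8 genes, with mean ± SD beside them, for Met-Met, Met and Control (4 libraries each). Ccnb1, Cenpa, Cdc20 and Cdk1 in the upper row separate Met from Control fully, as do Rrm2 and Tk1 in the lower row, while Mcm6 and Pcna do not.

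The S phase genes differed less between Met and Control. Among 7 tested genes that load or form the replicative helicase, 0 were called in either direction, and 0 at an unadjusted p under 0.05. Mcm2, a subunit of the ring, was at 8.58, 6.51, 13.9 and 6.44 in the Met-Met libraries, 6.44, 4.39, 3.70 and 7.80 in the Met libraries and 6.87, 6.68, 6.33 and 5.47 in the Control libraries. Mcm5, another subunit, was at 9.40, 5.83, 17.4 and 7.73 in the Met-Met libraries, 7.21, 4.47, 3.44 and 8.39 in the Met libraries and 6.48, 6.99, 7.43 and 5.51 in the Control libraries. In both genes Met 2 and Met 3 were below every Control library while Met 4 was above every Control library, and the fold changes were −0.20 (adjusted p = 0.562) and −0.20 (adjusted p = 0.641). Mcm6 was at 20.5, 13.6, 32.0 and 19.9 in the Met-Met libraries, 19.7, 16.5, 8.64 and 20.04 in the Met libraries and 15.8, 15.3, 13.5 and 13.6 in the Control libraries. Here 3 of the 4 Met libraries were above every Control library and Met 3 was below them all. Its fold change was 0.09 with a 95% interval of −0.48 to 0.65 (adjusted p = 0.842), an interval that holds changes in both directions.

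Mcm3 was at 7.38, 5.32, 13.5 and 5.86 in the Met-Met libraries, 3.82, 3.05, 2.04 and 5.07 in the Met libraries and 5.15, 5.35, 5.11 and 4.61 in the Control libraries. Its difference of −0.48 (standard error 0.25, limma adjusted p = 0.176) was not called. Mcm4 and Mcm7 had fold changes of −0.17 and −0.29 (adjusted p = 0.614 and 0.200). Cdt1, which brings the ring to origins, was at 4.66, 3.72, 8.01 and 3.21 in the Met-Met libraries, 4.30, 4.13, 2.95 and 3.78 in the Met libraries and 4.10, 4.64, 4.92 and 3.97 in the Control libraries. Met and Control overlapped and the fold change was −0.18 (adjusted p = 0.529). Cdc6, the other loader, had low values of 1.09, 0.732, 2.06 and 1.0 in the Met-Met libraries, 0.614, 0.105, 0.256 and 0.989 in the Met libraries and 0.666, 0.784, 0.547 and 0.557 in the Control libraries. Met-Met was at or above 0.732 in each library, against 0.105 to 0.989 in Met and 0.547 to 0.784 in Control, and no test was made.

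Of the genes that act at the fork, Pcna encodes the sliding clamp of DNA polymerases. It was at 26.9, 21.3, 42.8 and 25.96 in the Met-Met libraries, 25.7, 20.1, 18.0 and 28.7 in the Met libraries and 21.2, 21, 19.9 and 18.3 in the Control libraries. Its fold change was 0.17 (95% interval −0.24 to 0.58, adjusted p = 0.535), the highest of the 36 genes in Met against Control. Cdc45 and Gins2, which turn the ring into an active helicase, were at −0.32 and −0.10 (adjusted p = 0.326 and 0.564).

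The 3 S phase genes called lower were among the 4 of nucleotide supply. Rrm2 encodes the regulated subunit of ribonucleotide reductase. It was at 9.85, 7.37, 15.6 and 9.73 in the Met-Met libraries, 5.94, 4.02, 2.66 and 5.04 in the Met libraries and 7.28, 9.20, 8.65 and 6.95 in the Control libraries. No Met library reached a Control library, and Rrm2 fell by 0.77 (standard error 0.22, limma adjusted p = 0.0218). Tk1, the thymidine salvage kinase, was at 1.93, 2.26, 3.65 and 2.71 in the Met-Met libraries, 1.57, 1.13, 1.12 and 0.985 in the Met libraries and 2.78, 2.71, 2.57 and 2.32 in the Control libraries. The Met libraries were at 1.57 or less and the Control libraries at 2.32 or more, a change of −0.71 (standard error 0.14, limma adjusted p = 0.00349). Rrm1, the large reductase subunit, fell by 0.42 (standard error 0.12, limma adjusted p = 0.0196). Tyms, which makes thymidylate anew, was at 3.75, 3.73, 5.32 and 3.64 in the Met-Met libraries, 4.25, 2.98, 2.60 and 3.88 in the Met libraries and 3.49, 3.23, 3.08 and 2.87 in the Control libraries. It overlapped between Met and Control (0.07, adjusted p = 0.728), so 3 of 4 nucleotide genes were lower. No test of nucleotide genes against other S phase genes was made, and Mcm3, not called, was at −0.48 beside −0.42 in Rrm1. Of the 3 calls 1, that of Tk1, was left without Met 3 or without Control 2, and likewise with the B cell marker mean as a covariate or without the 3 libraries with high Gm26917. Rrm2 was also lost without Control 3 and with the replicate block. The S phase median moved to −0.07 without Met 3 and to −0.33 without Met 4.

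**Figure D3:**
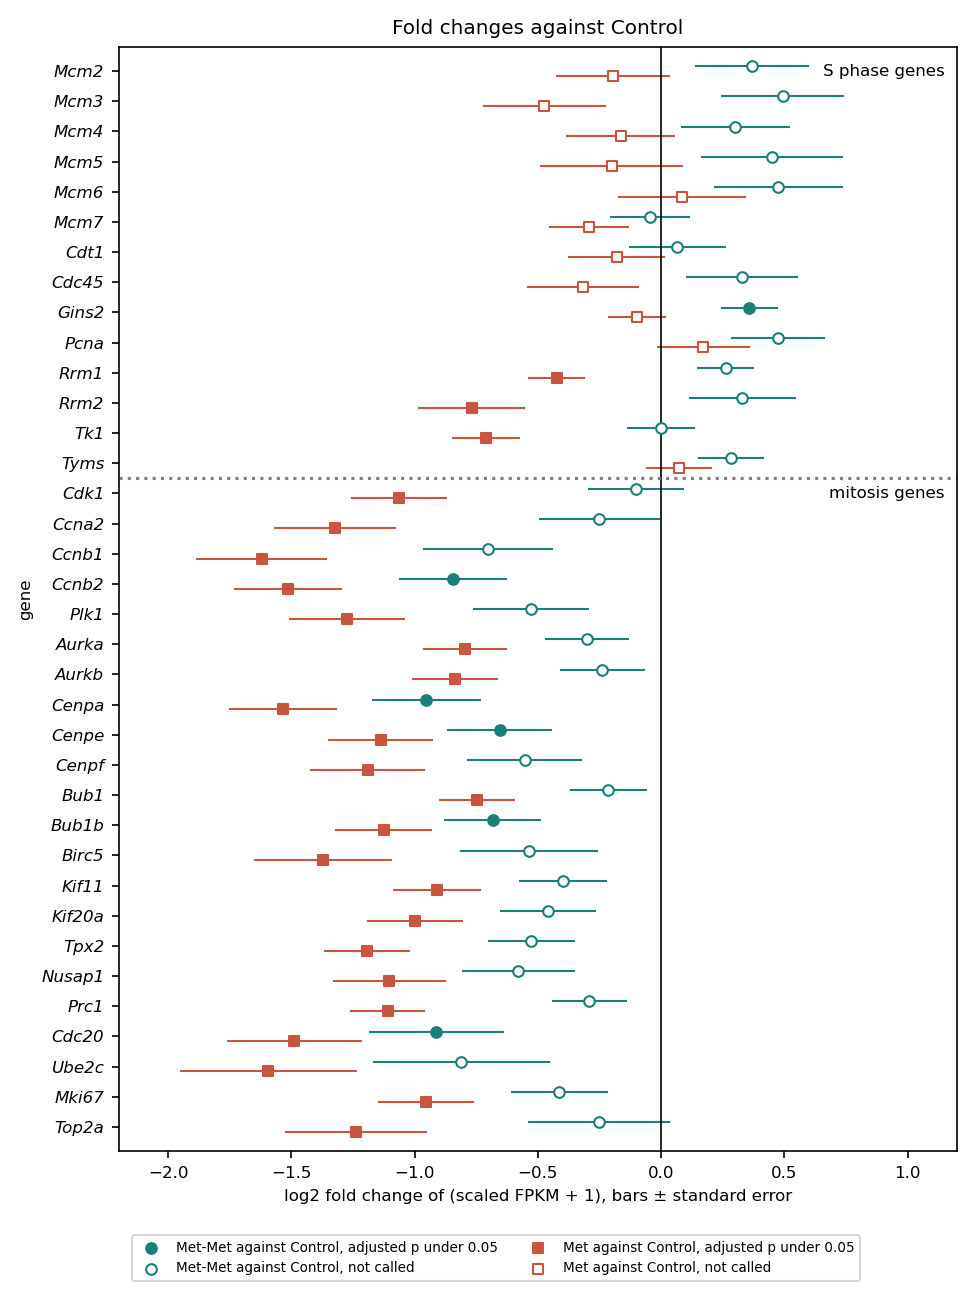
Each gene tested has its log2 fold change against Control for Met-Met (circles) and Met (squares), with bars of ± 1 standard error and filled symbols where the adjusted p was under 0.05. All 22 mitosis genes are filled squares left of 0 at −0.75 to −1.62, whereas S phase genes spread from −0.77 to 0.17 in Met.

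Because the mitosis and S phase genes separated, the letters around their start sites are shown for 5 mitosis genes with large changes and 2 Mcm genes that were not called, picked with their values known. Promoters are from RefSeq (GRCm38.p6), 250 bases before to 50 after the annotated start, 5′ to 3′ on the strand of the gene. Of the 37 genes 31 matched an entry. Capitals mark any of 3 motifs searched on both strands: TTTGAA, the cell cycle homology region (CHR) at which B-Myb and DREAM complexes bind, CCAAT, the box of NF-Y, and the E2F site. For E2F the letters TTCCCGC counted, and so did the variant TTGGCGC, another variant TTGCCGC and the last variant TTCGCGC. Ccnb1 is at chr13:100786437-100786736 (minus strand), Ccnb2 at chr9:70421505-70421804 (minus), Cdc20 at chr4:118437294-118437593 (minus), Cenpa at chr5:30666636-30666935 (plus), Plk1 at chr7:122159185-122159484 (plus), Mcm3 at chr1:20820263-20820562 (minus) and Mcm6 at chr1:128359656-128359955 (minus).
Ccnb1: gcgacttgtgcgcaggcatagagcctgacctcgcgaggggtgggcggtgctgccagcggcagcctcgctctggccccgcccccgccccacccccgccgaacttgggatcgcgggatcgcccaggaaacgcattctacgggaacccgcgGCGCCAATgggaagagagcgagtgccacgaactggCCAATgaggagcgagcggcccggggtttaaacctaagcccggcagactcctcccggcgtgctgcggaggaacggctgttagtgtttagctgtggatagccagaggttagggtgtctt
Ccnb2: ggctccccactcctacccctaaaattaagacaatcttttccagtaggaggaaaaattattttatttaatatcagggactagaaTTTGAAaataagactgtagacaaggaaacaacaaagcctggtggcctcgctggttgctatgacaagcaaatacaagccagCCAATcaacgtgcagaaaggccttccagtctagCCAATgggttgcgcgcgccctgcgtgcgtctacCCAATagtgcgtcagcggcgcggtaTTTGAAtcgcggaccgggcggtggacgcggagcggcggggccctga
Cdc20: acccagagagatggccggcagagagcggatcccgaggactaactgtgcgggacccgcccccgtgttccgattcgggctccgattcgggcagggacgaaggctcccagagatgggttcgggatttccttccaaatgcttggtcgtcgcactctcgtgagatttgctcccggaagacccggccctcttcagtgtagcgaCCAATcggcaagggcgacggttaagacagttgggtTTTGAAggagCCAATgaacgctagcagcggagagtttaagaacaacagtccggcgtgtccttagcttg
Cenpa: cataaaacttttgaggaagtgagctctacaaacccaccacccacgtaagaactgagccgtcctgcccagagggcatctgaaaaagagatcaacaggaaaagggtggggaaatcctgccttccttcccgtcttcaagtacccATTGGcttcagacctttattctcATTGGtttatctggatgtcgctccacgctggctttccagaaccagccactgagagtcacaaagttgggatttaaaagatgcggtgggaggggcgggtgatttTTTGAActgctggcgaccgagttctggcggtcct
Plk1: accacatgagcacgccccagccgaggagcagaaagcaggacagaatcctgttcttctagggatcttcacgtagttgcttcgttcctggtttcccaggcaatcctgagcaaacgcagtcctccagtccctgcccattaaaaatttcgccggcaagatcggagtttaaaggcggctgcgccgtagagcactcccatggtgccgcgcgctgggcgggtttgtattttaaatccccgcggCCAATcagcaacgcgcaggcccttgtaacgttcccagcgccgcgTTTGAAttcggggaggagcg
Mcm3: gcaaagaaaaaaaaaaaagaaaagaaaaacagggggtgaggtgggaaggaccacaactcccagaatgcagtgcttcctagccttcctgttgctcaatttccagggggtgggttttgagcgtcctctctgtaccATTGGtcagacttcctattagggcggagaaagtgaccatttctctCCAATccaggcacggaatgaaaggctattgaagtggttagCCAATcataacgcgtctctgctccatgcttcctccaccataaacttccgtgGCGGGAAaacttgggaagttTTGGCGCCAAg
Mcm6: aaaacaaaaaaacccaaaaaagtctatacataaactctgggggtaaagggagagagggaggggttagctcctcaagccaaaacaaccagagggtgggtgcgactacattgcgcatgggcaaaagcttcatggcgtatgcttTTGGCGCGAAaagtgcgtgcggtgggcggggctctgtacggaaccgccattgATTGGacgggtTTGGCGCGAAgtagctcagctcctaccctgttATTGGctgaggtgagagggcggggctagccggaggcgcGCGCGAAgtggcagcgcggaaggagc

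TTTGAA begins 18 bases before the start in Cdc20, 17 after it in Cenpa, 31 after it in Plk1, and both 167 before and 5 after it in Ccnb2. Ccnb1, which had the lowest fold change, holds no TTTGAA in this window, and no other letters were searched for as a CHR. It has CCAAT beginning 99 and 67 bases before the start, and E2F letters 102 before it on the opposite strand that overlap the first of these. Mcm3 and Mcm6 hold E2F letters and no TTTGAA, and some of their E2F matches overlap each other on opposite strands. Among members with a promoter entry, 13 of 18 mitosis genes (72.2%) and 2 of 13 S phase genes (15.4%) held TTTGAA, against 20.2% of all 27025 genes with an entry. Within 50 bases of the start it was present in 12 of 18 mitosis genes (66.7%) and 1 of 13 S phase genes (7.69%), against 5.72% of all genes. E2F letters were the reverse, in 3 of 18 mitosis genes (16.7%) and 8 of 13 S phase genes (61.5%), against 10.9% of all genes. CCAAT was found in 16 of 18 (88.9%) and 9 of 13 (69.2%), against 41.1%. A match is a description of letters and not a site shown to be bound, and a gene with several entries counts where any of them holds the motif.

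The comparison of Met-Met with Control asks how the gland differs on the same deficient diet where the injection held the dipeptide. Of the 36 genes tested, 5 were lower and 1 was higher, next to 9.41% and 10.8% of all genes tested. The 5 make up 13.9% of the members, not far above that share. Met-Met lay wholly below Control for 2 genes (11.9% of all genes tested) and wholly above for 3 (15.1%). All 5 act in mitosis: Cenpa changed by −0.95 (standard error 0.22, limma adjusted p = 0.0122), Cdc20 by −0.91 (adjusted p = 0.0346), Ccnb2 by −0.84 (adjusted p = 0.0195), Bub1b by −0.68 (adjusted p = 0.0302) and Cenpe by −0.66 (adjusted p = 0.0475). Cenpa was the lowest of the 36, with Met-Met at 2.41 ± 1.17 and Control at 5.35 ± 0.307 (SD, n = 4 each). The gene that rose was Gins2, by 0.36 (standard error 0.12, limma adjusted p = 0.0482), with Met-Met libraries at 1.41, 1.47, 2.12 and 1.63 and Control libraries at 1.24, 1.02, 1.04 and 0.965. The call of Gins2 was lost without any one of the 8 Met-Met and Control libraries, and without Met 1, Met 2 or Met 4, with adjusted p = 0.0412 to 0.117 over the 12 libraries left out in turn. It was lost too with pseudocounts of 0.1 or 0.5 and with the replicate block. Leaving out the 4 genes with a Met mean under 1 FPKM, of which Gins2 is one, 0 of 13 S phase genes were higher (2 at an unadjusted p under 0.05) and 4 of 19 mitosis genes were lower.

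The remaining 17 mitosis genes were not called against Control, at adjusted p = 0.0524 to 0.748, and 0 were higher at an unadjusted p under 0.05. Ccnb1 averaged 3.59 ± 2.22 in Met-Met and 5.93 ± 0.770 in Control (SD, n = 4 each), a fold change of −0.70 (standard error 0.26, limma adjusted p = 0.0809). Cdk1 (−0.10, adjusted p = 0.748), Top2a (−0.25, adjusted p = 0.573) and Ccna2 (−0.25, adjusted p = 0.5004) had smaller differences. Met-Met 3 exceeded the other 3 Met-Met libraries for every one of the 37 genes. Without that library 17 mitosis genes were lower than Control, with a median of −0.75, beside 7.51% of all genes tested. The count fell to 1 without Met-Met 1, Met-Met 2 or Control 2, to 2 without Control 1 and to 3 without Met-Met 4, Control 3 or Control 4.

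Among S phase genes 12 of 14 had a positive fold change against Control in Met-Met. Mcm3 was the highest at 0.49 (standard error 0.25, limma adjusted p = 0.180), followed by Mcm6 (0.48, adjusted p = 0.215) and Pcna (0.47, adjusted p = 0.0967). For Pcna every Met-Met library was above every Control library, with means of 29.3 ± 9.37 and 20.1 ± 1.295 (SD, n = 4 each), though the test missed the threshold. Tk1, low in Met, was at 2.64 ± 0.746 in Met-Met and 2.59 ± 0.204 in Control (SD, n = 4 each), a fold change of 0.00 with a 95% interval of −0.30 to 0.30. Without Met-Met 3 the S phase median against Control was 0.16.

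The comparison of Met-Met with Met concerns the dipeptide itself, at equal diet. The 13 genes higher of 36 (36.1%) stand beside 5.94% of all genes tested that were higher, and 5.66% that were lower. None of the 36 was lower, also at an unadjusted p under 0.05. For 14 genes every Met-Met library was above every Met library, against 8.43% of all genes tested, and for 0 genes every one was below, against 7.81%. Rrm2 had the highest fold change of the 36 on this scale, 1.10 (standard error 0.22, limma adjusted p = 0.00936), with 10.6 ± 3.49 in Met-Met and 4.41 ± 1.41 in Met (SD, n = 4 each). As a ratio of group means it was at 2.41, below Ccnb1 (2.81), Cdk1 (2.69) and Ccna2 (2.56). Tk1 rose by 0.71 (standard error 0.14, limma adjusted p = 0.00868) and Rrm1 by 0.69 (standard error 0.12, limma adjusted p = 0.00509). Mcm3 (0.97, adjusted p = 0.0289) and Gins2 (0.46, adjusted p = 0.0277) were the others of S phase. In all 5 of these genes the lowest Met-Met library was above the highest Met library. Tyms had the lowest fold change of the 36, 0.21 (adjusted p = 0.330).

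The 8 mitosis genes higher in Met-Met than in Met were Ccna2, Cdk1, Top2a, Ccnb1, Prc1, Tpx2, Aurkb and Bub1. Ccna2 rose by 1.07 (standard error 0.25, limma adjusted p = 0.0178), Cdk1 by 0.96 (standard error 0.20, limma adjusted p = 0.0108) and Ccnb1 by 0.92 (standard error 0.26, limma adjusted p = 0.0431). Cdk1 was at 3.76 ± 1.304 in Met-Met and 1.40 ± 0.398 in Met (SD, n = 4 each), with no overlap. Prc1 had the smallest adjusted p of the 8, at 0.82 (adjusted p = 0.00681). Cenpa, Ccnb2 and Cdc20, which were lower than Control in both treated groups, were not called here (0.58, 0.67 and 0.58, adjusted p = 0.108, 0.0658 and 0.189). Met and Met-Met share the same Controls, so no relation between the comparisons against Control is given. The count of 13 fell to 8 without Met-Met 3 or Met 1, to 7 without Met-Met 4, to 6 without Met 2 and to 5 without Met 3. The fit takes 1 spread per gene over all 3 groups, and for these genes Control libraries differed least among themselves. With only the 8 libraries compared the count was 5, with 3 of S phase and 2 of mitosis. Leaving out the 4 genes with a Met mean under 1 FPKM, 4 of 13 S phase and 7 of 19 mitosis genes were higher.

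Library by library, the balance between the 2 phases separated Met-Met and Met from Control. The geometric mean of the 22 mitosis genes, divided by that of the 15 S phase genes, does not depend on how a library is scaled. It was 0.421, 0.519, 0.645 and 0.667 in Met-Met 1 to 4 and 0.513, 0.453, 0.488 and 0.462 in Met 1 to 4, against 1.04, 1.14, 1.13 and 1.29 in Control 1 to 4. Every Met-Met and Met library was below every Control library, Met-Met 3 included. Diet, methionine amount and injection cannot be told apart in this difference. The geometric mean of the S phase genes was 5.94, 4.74, 9.61 and 5.45 in Met-Met, 4.55, 3.06, 2.64 and 4.83 in Met and 4.98, 5.0, 4.76 and 4.29 scaled FPKM in Control, and Met overlapped with Control. For the mitosis genes it was 2.50, 2.46, 6.20 and 3.63 in Met-Met, 2.33, 1.39, 1.29 and 2.23 in Met and 5.18, 5.68, 5.37 and 5.53 in Control. Here Met-Met 3 was above every Control library and the other 7 Met-Met and Met libraries were below them.

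**Figure D4:**
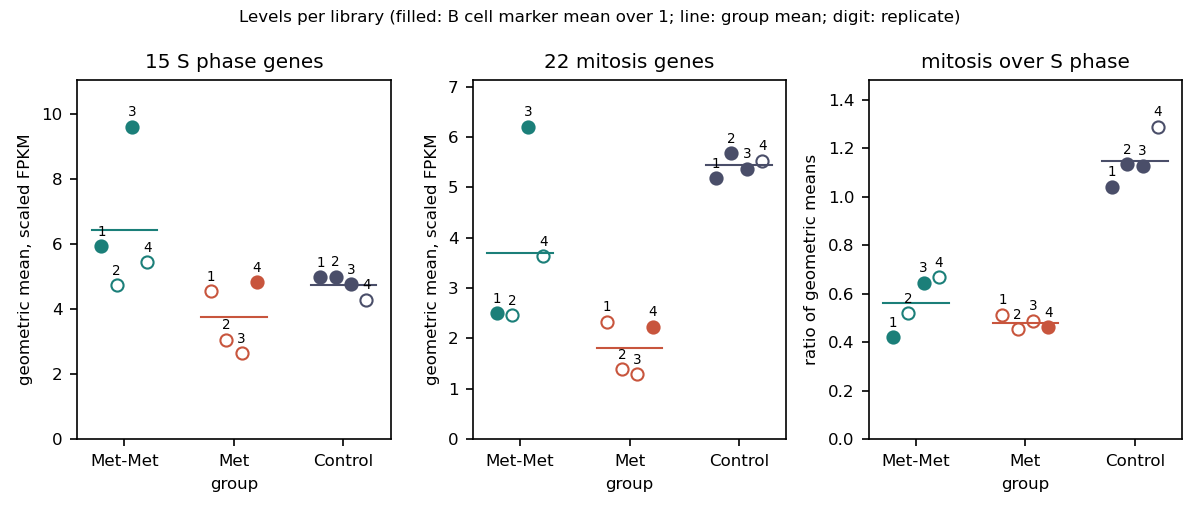
Points are the 12 libraries, numbered by replicate, filled where the B cell marker mean was over 1, with lines at the group means. The left and middle panels show geometric means in scaled FPKM of S phase and mitosis genes and the right panel their ratio, which is 0.421 to 0.667 in the 8 Met-Met and Met libraries and 1.04 to 1.29 in Control.

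Control libraries differed less among themselves than the others did. The median coefficient of variation of a mitosis gene was 48.3% in Met-Met and 33.9% in Met, against 8.61% in Control, and that of an S phase gene was 32.9% in Met-Met and 31.2% in Met, against 9.82% in Control. Met-Met 3 was the highest of all 12 libraries for 30 of 37 genes. Met 3 was the lowest of all for 24 genes and Met 2 for 12. Deviations from the group mean went together, with a median Pearson correlation over 12 libraries of 0.89 between pairs of mitosis genes, 0.83 between pairs of S phase genes and 0.77 across the phases. Without Met-Met 3 these were 0.77, 0.69 and 0.57. These correlations share library, scaling and depth, and no test was made.

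Further cell cycle genes, not among the 37, were sorted into 4 lists. Of 70 further mitosis genes 62 were tested, of which 48 were lower and 0 higher in Met than in Control (0 also at an unadjusted p under 0.05). The 48 make up 77.4%, beside 14.8% of all genes tested that were lower and 13.6% that were higher. The median of the 62 was −0.75, against 0.01 for all genes. Kif23, a motor of the spindle midzone, changed by −1.22 (standard error 0.13, limma adjusted p = 1.92e-04). Incenp, the scaffold of the Aurora B complex, fell by 0.86 (adjusted p = 2.79e-04). Cdc25b, the phosphatase that removes the brake from Cdk1, changed by −1.05 (adjusted p = 6.11e-04), and Racgap1, a regulator of cytokinesis, by −1.41 (adjusted p = 0.00104). Against Control, 9 of the 62 (14.5%) were lower in Met-Met and 0 higher (median −0.27), beside 9.41% and 10.8% of all genes tested. Against Met, 11 (17.7%) were higher in Met-Met and 0 lower (median 0.47), beside 5.94% and 5.66% of all genes tested. Both counts of 0 were also 0 at an unadjusted p under 0.05.

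Of 56 further S phase genes 52 were tested. Against Control, 2 of them were higher (3.85%) in Met and 1 was lower (1.92%), with a median of −0.06. These shares were below the 13.6% and 14.8% of all genes tested. Dctpp1, which clears surplus dCTP, rose by 0.42 (adjusted p = 0.0358), and Dck, the deoxycytidine salvage kinase, fell by 0.47 (adjusted p = 0.0406). Fen1, a nuclease of Okazaki fragments, was at 3.13, 3.504, 10.5 and 10.6 in Met and 2.14, 1.49, 3.69 and 2.41 in Control (1.08, adjusted p = 0.0325). Its high libraries Met 3 and Met 4 are also those with high Gm26917. Met-Met 2, the other such library, had 2.10, the lowest Fen1 level in Met-Met. A link between Fen1 and Gm26917 was not tested. Without these 3 libraries the Fen1 fold change was 0.37 (adjusted p = 0.250). The call was also lost without any one of Met 3, Met 4, Control 1, Control 2 and Control 4. Against Control, 1 of the 52 (1.92%) was higher in Met-Met and 0 were lower (median 0.17), beside 10.8% and 9.41% of all genes tested. Against Met, 5 (9.62%) were higher in Met-Met and 0 lower (median 0.23), beside 5.94% and 5.66% of all genes tested. At an unadjusted p under 0.05, those lower were 0 and 1.

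**Figure D5:**
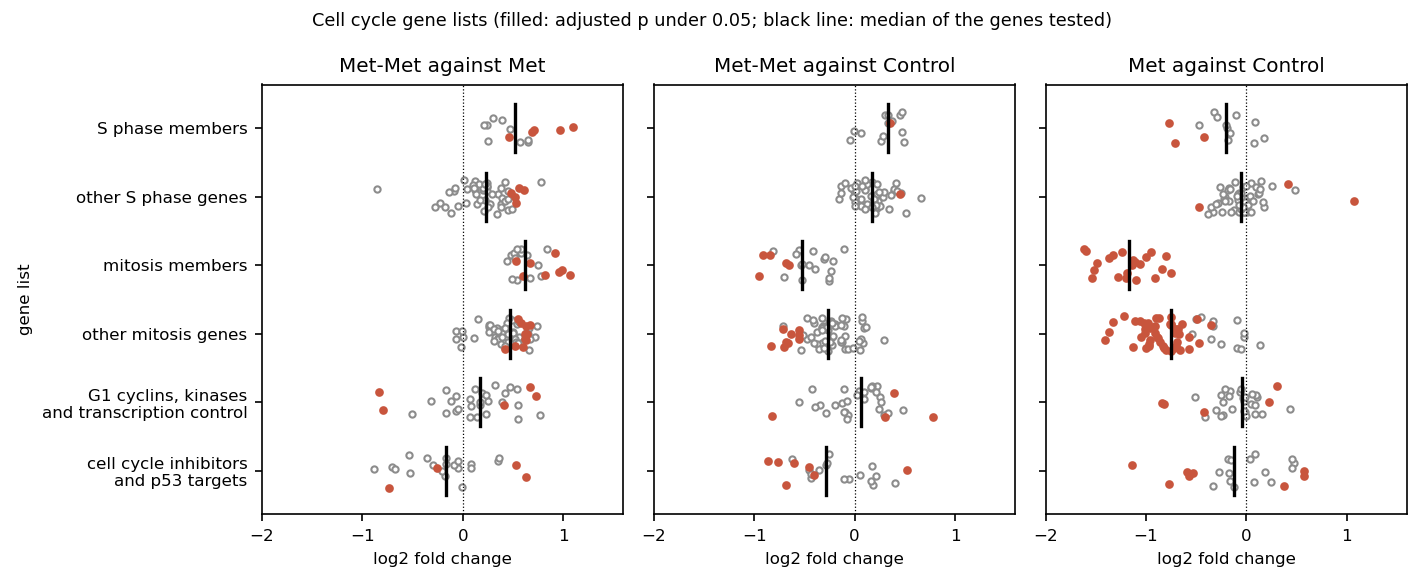
Points are genes tested in 6 lists, with the log2 fold change on the x axis for Met-Met against Met, Met-Met against Control and Met against Control, filled where the adjusted p was under 0.05 and with a black line at the median. In Met against Control the 2 mitosis lists lie left of 0 (medians −1.16 and −0.75) and the 2 S phase lists near it (−0.20 and −0.06).

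Upstream of both phases, 35 genes of G1 cyclins, their kinases and transcription control were considered, 32 of them tested. Against Control, 2 were higher (6.25%) and 3 lower (9.38%) in Met (median −0.04), below the 13.6% and 14.8% of all genes tested. Met-Met had 3 of the 32 higher (9.38%) and 1 lower (3.13%), with a median of 0.07, next to 10.8% and 9.41% of all genes tested. Foxm1, which encodes an activator of mitosis genes, was at 1.17, 1.25, 2.78 and 1.83 in the Met-Met libraries, 1.28, 0.636, 0.458 and 1.07 in the Met libraries and 2.201, 2.21, 2.28 and 2.40 in the Control libraries. In Met it fell by 0.84 (standard error 0.18, limma adjusted p = 0.00648), while Met-Met was at −0.28 (adjusted p = 0.294). E2f1, an activator of S phase genes, was at 3.19, 2.60, 5.31 and 3.08 in the Met-Met libraries, 2.90, 1.48, 1.57 and 2.45 in the Met libraries and 2.13, 2.2, 2.02 and 2.34 in the Control libraries. It was not called in Met (−0.06, adjusted p = 0.844) or in Met-Met (0.49, adjusted p = 0.0787), though every Met-Met library lay above every Control library. Mybl2, which encodes B-Myb, was not called in Met (−0.25, adjusted p = 0.298).

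Cyclins D1 and D2 start G1 in response to growth signals. Ccnd1 was at 12.4, 8.81, 25.7 and 14.4 in the Met-Met libraries, 21.5, 17.6, 12.7 and 21.7 in the Met libraries and 23.9, 28.6, 17.5 and 17.3 in the Control libraries. It overlapped between the groups and was not called (−0.23, adjusted p = 0.564 in Met). Ccnd2 was at 14.7, 12.4, 23.5 and 20.1 in the Met-Met libraries, 11.7, 8.19, 11.8 and 18.5 in the Met libraries and 24.0, 25.7, 25.1 and 15.4 in the Control libraries. In Met it fell by 0.82 (adjusted p = 0.0279), and its partner Cdk4 fell by 0.43 (adjusted p = 0.00434). Myc, a transcription factor of growth, was at 14.7, 10.9, 19.7 and 9.12 in the Met-Met libraries, 22.5, 28.6, 24.2 and 19.1 in the Met libraries and 25.4, 19.6, 21.4 and 30.4 in the Control libraries. It fell in Met-Met against Control (−0.82, adjusted p = 0.0187) and against Met (−0.79, adjusted p = 0.0320) and was at −0.03 (adjusted p = 0.938) in Met against Control. Nfyc, an NF-Y subunit, rose slightly in Met (0.22, adjusted p = 0.0282), but was at −0.07 with FPKM as deposited.

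Of 25 cell cycle inhibitors and p53 targets 23 were tested. Relative to Control, 3 were higher (13.04%) and 5 lower (21.7%) in Met, with a median of −0.12, next to 13.6% and 14.8% of all genes tested. Met-Met had 1 higher (4.35%) and 6 lower (26.1%), with a median of −0.29, next to 10.8% and 9.41%. Cdkn1a encodes p21, an inhibitor of cyclin-dependent kinases. It was at 5.83, 4.37, 6.76 and 5.47 in the Met-Met libraries, 10.4, 7.996, 12.8 and 8.86 in the Met libraries and 5.53, 7.56, 9.38 and 5.43 in the Control libraries. Met-Met was below Met without overlap (−0.73, standard error 0.18, limma adjusted p = 0.0231), while Met was at 0.48 (adjusted p = 0.0649) against Control. Cdkn1b, which encodes p27, was not called in Met (−0.17, adjusted p = 0.441) or Met-Met (−0.35, adjusted p = 0.130). Cdkn3, a phosphatase of Cdk2 whose level peaks in mitosis, fell by 1.14 (adjusted p = 3.69e-04) in Met. Pkmyt1, a kinase that holds Cdk1 inactive, changed by −0.57 (adjusted p = 0.00807), and Cdkn2d, an inhibitor of Cdk4, by −0.53 (adjusted p = 0.0100). Ccng1, a p53 target, rose by 0.57 (adjusted p = 0.00182).

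B cells can divide too, so their markers are given beside these results. The summed level of 10 B cell markers, all of them detected, was 0.933 to 15.4 scaled FPKM in Met-Met, 1.07 to 16.4 in Met and 0.486 to 75.9 in Control. The list mean differed by −1.62 log2 units between Met and Control and by −1.37 between Met-Met and Control (exact two-sided permutation p = 0.143 for each, adjusted p = 0.214). Control 4, with a sum of 0.486, is 1 library. Its mitosis levels were at a median of 1.04 times the mean of the other Controls, and above every Met library for 22 of 22 mitosis genes. With the B cell marker mean as a covariate 16 members were called lower in Met against Control, beside 25 without it. The part in these results of B cells, or of T cells, whose markers split the libraries alike, was not tested. For the 8 germinal centre B cell markers the sum was 12.4 to 14.97 in Met-Met, 14.9 to 21.5 in Met and 14.2 to 16.4 in Control, with Gcnt3 at 0 in every Met library. Leaving out the 6 libraries with B cell markers left 1 Control library, whose spread is then taken to equal that of the treated groups, and 22 of 22 mitosis genes stayed below 0 in Met (median −1.32). No gene of the 36 was then called, and 24 were lower at an unadjusted p under 0.05.

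Markers of other cells also moved with the groups. Fibroblast markers (10 of 10 detected) summed to 1201 to 1758 in Met-Met and 709 to 919 in Met, against 1481 to 1956 in Control. Erythroid markers (9 of 10 in the tables) summed to 11.7 to 116 in Met-Met and 62.7 to 126 in Met, against 211 to 742 in Control, and the membrane gene Epb42 was at 0 in every Met-Met library. Luminal epithelium markers (10 of 10) summed to 776 to 897 in Met-Met and 595 to 863 in Met, against 763 to 917 in Control. Alveolar epithelium markers (10 of 10) summed to 168280 to 230440 in Met-Met and 252410 to 353290 in Met, against 101300 to 225330 in Control, so that the sums of Met and Control did not overlap. Their list mean was 0.57 higher in Met-Met (exact permutation p = 0.0571, adjusted p = 0.122) and 0.54 higher in Met (exact permutation p = 0.0857, adjusted p = 0.161) than in Control.

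The exact permutation p for Met against Control was 0.0286, the smallest possible with 4 against 4, for 7 of the 15 list means (adjusted p = 0.0612 for each). Of these, 6 were lower in Met: erythroid (−1.12), fibroblast (−0.96), adipocyte (−0.93), macrophage (−0.47), myoepithelium (−0.36) and endothelium (−0.23). Skin keratinocyte markers were higher (0.58), most of it from Met 2. Their means were 0.219, 2.07, 0.226 and 0.209 in Met 1 to 4, against 0.0901 to 0.127 in Control. Adipocyte markers summed to 2333 to 2893 in Met and 2715 to 3078 in Control, and macrophage markers to 142 to 168 in Met and 179 to 314 in Control. The myoepithelium sum was 307 to 371 in Met and 517 to 601 in Control, and the endothelium sum 81.4 to 97.6 in Met and 107 to 117 in Control. For skin keratinocyte markers it was 2.43 to 63.7 in Met and 0.804 to 1.33 in Control, where 5 of the 10 were at 0 in every library. T cell markers differed by −1.51 with overlap (exact permutation p = 0.114, adjusted p = 0.190). That smallest p was also reached in Met-Met against Control by the adipocyte (−1.22), erythroid (−1.60), endothelium (−0.37) and skin keratinocyte (0.05) means, and in Met-Met against Met by the fibroblast (0.68), myoepithelium (0.38), macrophage (0.26) and skin keratinocyte (−0.53) means, with adjusted p = 0.107 for each. With the fibroblast mean as a covariate limma called 0 members and 0 of all genes in Met against Control. At an unadjusted p under 0.05, 21 members were lower. The mitosis median was then −1.61 and the S phase median −0.83, with 14 of 14 S phase genes below 0. Fibroblast means were 5.54 to 5.75 in Met and 6.38 to 6.81 in Control, so this covariate follows the groups and the fit can hardly separate them. The part of these cell types in the results was not tested. Met-Met 3, highest for all members in its group, had the lowest erythroid mean of the 12 libraries (0.865) and a B cell mean of 1.23, next to 1.25 in Met-Met 1.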

How the data were processed

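The deposited values are FPKM per transcript, which the authors calculated; per the submitters' processing notes, HISAT2 2.0.4, Bowtie2 2.2.8 and StringTie 1.3.1 were used with builds GRCm38 and mm9, whose roles are not given in the sources used here. Absolute depth is not given. FPKM were summed per gene (84 transcripts for 37 members, 7 of which had under 80% of their level in 1 transcript), and libraries were scaled by median ratios to their common mean, with factors of 0.835 to 1.23. Genes averaging 1 FPKM or more (11809) were fitted as log2(scaled FPKM + 1) with limma 3.58.1 (R 4.3.3), using a mean for each of 3 groups, a variance trend and Benjamini-Hochberg adjustment. The fit for Met against Control was run on simulated data, with independent genes and 1 spread per gene shared by the groups. It recovered 83.2% to 86% of changes of 1 log2 unit and 44.2% to 48.2% of changes of 0.5, in either direction. Of the genes called, 4.13% were false. The members differ from that setting, since their spread differs between groups and their deviations are correlated. Marker list means were compared by exact permutation over 70 arrangements, adjusted over 15 lists. Same-numbered libraries correlated at −0.408 to 0.169, so numbers were not treated as pairs. No 2 libraries held identical values.

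Named beyond the members were up to 4 called genes with the smallest p in Met against Control from each further list, and always Ccnd1, Ccnd2, Cdkn1a, Cdkn1b, Myc, E2f1, Foxm1 and Mybl2. Members, lists, motifs and most alternatives were chosen with earlier results of these data known. Alternatives were FPKM as deposited, quantile normalization, smaller pseudocounts (0.1 or 0.5), no minimum level or 1 of 5 FPKM, only the 8 libraries compared, the replicate number as a block, B cell, fibroblast or luminal marker means as covariates, 1 transcript per gene, leaving out the 3 libraries with high Gm26917 or the 6 with B cell markers, and leaving out each library in turn. Python 3.11.15 with matplotlib 3.10.9 made tables and figures.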

Additional observations from a re-analysis of the deposited data

Results flagged for a closer look

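Within a group of 4, the library at one end lay far from the other 3, by Dixon's test of the gap over the range, in 7 of 111 groups of values, where chance gives about 1 in 20. In Met-Met these were the high values of Met-Met 3 for Tyms (5.32), Aurka (4.56) and Bub1 (2.62 scaled FPKM). In Control they were low values, of Mcm4 in Control 4 (5.46), Plk1 in Control 2 (3.79), Cenpf in Control 3 (2.86) and Mki67 in Control 1 (17.1 scaled FPKM). No Met group was singled out.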

How the results depend on the processing

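Met against Control. With all 12 libraries, 25 members, 64 genes of the other cell cycle lists and 3357 of all genes were called. The counts were 8, 12 and 2209 at a mean of at least 5 FPKM (15 members tested), 16, 27 and 1423 with the B cell covariate, 0, 0 and 0 with the fibroblast covariate, and 0, 0 and 8 without the 6 libraries with B cell markers; the other lists gave 42 without the 3 libraries with high Gm26917. Leaving out 1 library gave 23 to 26 members, 47 to 69 other genes and 2116 to 3572 of all genes. The replicate block gave 24 members lower.

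Met-Met against Control. Members lower numbered 5, against 3 with quantile normalization, no filter or only the 8 libraries compared, 2 with the replicate block, 1 at a mean of at least 5 FPKM, with the fibroblast covariate or without the 3 libraries, and 0 with the B cell covariate or without the 6 (4 and 12 at an unadjusted p under 0.05); leaving out 1 library gave 1 to 17. The 1 member higher became 2 with quantile normalization, the luminal covariate or without the 3 libraries and 0 as deposited, with pseudocounts of 0.1 and 0.5, at a mean of at least 5 FPKM, with the replicate block, the B cell or fibroblast covariate, 1 transcript per gene or without the 6 (0 to 1 without 1 library). Other lists, 21 at first, gave 7 at the higher minimum, 13 with the block or 1 transcript, 10 and 5 with the B cell and fibroblast covariates, and 12 and 0 without the 3 and the 6 libraries (10 to 37 without 1). All genes, 2390 at first, gave 1365, 683 and 5 with the B cell and fibroblast covariates and without the 6 (1317 to 2733 without 1).

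Met-Met against Met. Members higher numbered 13, against 7 with no filter or without the 3 libraries, 5 at a mean of at least 5 FPKM or with the 8 libraries, 6 with the replicate block or 1 transcript, 23 with the luminal covariate, and 0 with the fibroblast covariate or without the 6 (17 and 18 at an unadjusted p under 0.05); leaving out 1 library gave 5 to 17. Other lists, 25 at first, gave 13, 4, 5, 5 and 7 with no filter, the higher minimum, the 8 libraries, the block and 1 transcript, 0 and 58 with the fibroblast and luminal covariates, and 13 and 3 without the 3 and the 6 (5 to 47 without 1). All genes, 1370 at first, gave 748 with the 8 libraries, 845 with the block, 0 and 2807 with the fibroblast and luminal covariates, and 910 and 450 without the 3 and the 6 (666 to 2303 without 1).

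FPKM as deposited moved the median of all genes by −0.27, −0.12 and 0.15 in these 3 comparisons. It gave 352 genes higher and 4299 lower, 499 and 1583, and 1556 and 274, against 1610 and 1747, 1279 and 1111, and 702 and 668 when scaled. Members then numbered 26 lower, 6 lower and 16 higher. No setting called a member higher in Met against Control or lower in Met-Met against Met. Nfyc was reversed as deposited in Met (−0.0733, adjusted p = 0.627) and with 1 transcript in Met-Met (−0.19, adjusted p = 0.725). Fibroblast means without the 3 libraries differed by −0.88 in Met against Control (exact permutation p = 0.0667) and 0.60 in Met-Met against Met (exact permutation p = 0.2). Without 1 library the B cell difference was −2.29 to −1.34, −2.04 to −1.09 and 0.0644 to 0.516, and the fibroblast difference −1.03 to −0.888, −0.375 to −0.188 and 0.589 to 0.776. The cause of each change was not tested, and some settings leave fewer genes or libraries.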

Other observations

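Cyclin E, which drives entry into S phase, was looked at after its values were seen and lies outside the rule for named genes. Ccne2 was at 2.68, 2.89, 5.59 and 2.50 in the Met-Met libraries, 2.62, 1.09, 1.14 and 1.69 in the Met libraries and 1.46, 1.80, 1.53 and 1.19 scaled FPKM in the Control libraries. It was higher in Met-Met than in Control (0.78, standard error 0.22, limma adjusted p = 0.0257) and than in Met (0.73, standard error 0.22, limma adjusted p = 0.0480). Ccne1 was higher in Met-Met too, by 0.40 (adjusted p = 0.0280) against Control and 0.41 (adjusted p = 0.0343) against Met. Neither was called in Met against Control (Ccne1 at −0.02 and Ccne2 at 0.05, adjusted p = 0.924 and 0.893).

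The motif shares of the further lists ran as those of the members did. TTTGAA was in the promoter window of 39 of 61 further mitosis genes with an entry (63.9%) and 6 of 45 further S phase genes (13.3%), and E2F letters were in 16 of 61 (26.2%) and 29 of 45 (64.4%).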
